A study of Mus musculus with 6 samples.

Results

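The genes described here are the metalloproteinases that cut the extracellular matrix and the cell surface, together with their tissue inhibitors: the matrix metalloproteinases (MMPs), the ADAMs, the ADAMTSs and the TIMPs. They were picked by gene symbol, as every record named Mmp, Adam or Adamts with a number or Timp1 to Timp4. The rule itself uses no measured value, but the family was chosen with earlier results of these data known. The rule found 79 genes among the 55413 gene records used: 23 MMPs, 33 ADAMs, 19 ADAMTSs and 4 TIMPs. RNA had been sequenced from C2C12, a line of mouse myoblasts whose cells leave the cycle and form myotubes once serum is reduced. All 6 libraries came from day 4 of differentiation in 2% horse serum, and 10% fetal bovine serum had been used for growth. Of these, 3 libraries are labelled FHL3-KO, a knockout of the LIM-domain protein FHL3, and 3 are labelled WT, the wild type. The labels name no clone for the knockout, and clone and genotype therefore cannot be told apart. Nor do they name separate cultures for the replicates. The p-values therefore reflect only how these samples spread, which may be a technical spread.

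MMPs, ADAMs and ADAMTSs are zinc-dependent endopeptidases that are made with a propeptide, which keeps the active site closed until it is cut off. Most MMPs are secreted and digest collagens, gelatins and other matrix proteins, while the membrane-type MMPs stay on the cell surface. ADAMs are transmembrane proteins that release the outer parts of receptors, ligands and adhesion molecules, and ADAMTSs are secreted enzymes that cut proteoglycans such as versican or trim procollagens. TIMPs are small secreted proteins that close the active site. In skeletal muscle these enzymes are known for remodelling the basement membrane during regeneration and, for some ADAMs and ADAMTSs, for work around myoblast fusion.

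Values are FPKM, a level per kilobase of transcript and per size of the library. They were deposited without read counts, so depth is unknown and counting intervals cannot be had. The FPKM of a library summed to between 477577 and 494176 in the libraries labelled FHL3-KO and to between 424987 and 473369 in WT. Fhl3 RNA was higher in the libraries labelled FHL3-KO, at 57.2, 53.5 and 58.9 FPKM, against 27.8, 30.03 and 33.7 FPKM in WT (log2 change 0.87, SE 0.092, limma adjusted p = 0.000547). The targeted gene's RNA thus does not bear out the label. An RNA level does not show whether FHL3 protein was made, so whether the label holds was not tested. The groups are named by their labels throughout. WT replicate 1 stands apart by liver transcripts: the 4 liver markers (Alb, Apoa1, Ttr and Serpina1a) summed to 74.7 FPKM there, to 0.021 FPKM in WT replicate 2 and to 0 in the other 4 libraries. Without that library 13 genes of the set were called, 4 higher and 9 lower, as with it. Of all genes tested 31.9% were called without it and 40.8% with it. The 6 myotube markers (Myog, Ckm, Acta1, Myh3, Tnnt3 and Mymk) were present in all libraries, and all 6 were higher in the libraries labelled FHL3-KO. They summed to 8460 to 8884 FPKM there, against 3104 to 3415 FPKM in WT. Of 6 fibroblast markers, Dcn and Postn were lower, Col1a1 was higher and Pdgfra was not called, while Lum was listed at 0 in all 3 libraries labelled FHL3-KO and Thy1 in all 6. The sum was 30.9 to 33.3 FPKM in libraries labelled FHL3-KO, against 241 to 294 FPKM in WT. Of 5 markers of undifferentiated or cycling myoblasts, Myf5, Mki67 and Top2a were lower, Ccnb1 was higher and Pax7 lay under the filter, with a sum of 56.4 to 74.6 FPKM with the FHL3-KO label, against 83.1 to 106 FPKM in WT. Each of 5 macrophage markers and 4 endothelial markers was below 1 FPKM in every library. The endothelial sum was 0.008 to 0.167 FPKM with the FHL3-KO label, against 0.528 to 1.25 FPKM in WT, and the macrophage sum 0.506 to 0.935 FPKM with the FHL3-KO label, against 0.788 to 0.869 FPKM in WT. The part of these marker differences in the results below was not tested, and in bulk RNA fewer cells of a type and less RNA per cell cannot be told apart.

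Most genes of the family were low or listed at 0. Only 25 of the 79 genes reached a mean of 1 FPKM in at least 1 group and were tested: 7 MMPs, 6 ADAMs, 9 ADAMTSs and 3 TIMPs. Another 27 genes were listed at 0 in all 6 libraries, among them the collagenases Mmp1a, Mmp1b and Mmp8, the matrilysin Mmp7, the enamel protease Mmp20 and 16 ADAMs, many of which are known from the male germ line (Adam2, Adam3, Adam18, Adam24 and others). The remaining 27 had some signal below that level. Testing used limma on log2(FPKM + 1) across all 12528 genes above the same level, and p-values were adjusted by Benjamini-Hochberg, with 0.05 as the threshold. All fold changes named log2 are on that scale, where changes of low genes come out too small.

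Of the 25 tested genes, 13 passed the threshold, 4 higher and 9 lower in the libraries labelled FHL3-KO. Over all genes tested, 40.8% passed, 19.7% higher and 21.2% lower. The 13 make up 52.0% of the 25. With each library scaled to the same sum, 4 were higher and 12 lower. Of the 12562 genes tested with that scaling, 1686 were higher and 2978 lower. A log2 change past 1 in size was reached by 3 of the called genes (Mmp2, Mmp10 and Adamts15) and, together with a call, by 6.07% of all genes tested. For 17 of the 25 genes (68.0%) no value of one group fell within the range of the other, 4 higher and 13 lower, against 53.8% over all genes tested, 26.9% in each direction. The median log2 change of the 25 was -0.27, beside -0.0051 for all genes tested. Mmp2, Mmp10 and Adamts15 passed the filter only through WT, so they had to differ, and the count and median are given as a description. The genes that rose were Mmp14, Mmp15, Adamts2 and Timp1. Those that fell were Mmp2, Mmp10, Adam10, Adam15, Adam17, Adamts4, Adamts5, Adamts10 and Adamts15. An exact permutation test of 3 against 3 libraries cannot give a two-sided p below 0.1 for any of them.

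**Figure D1:**
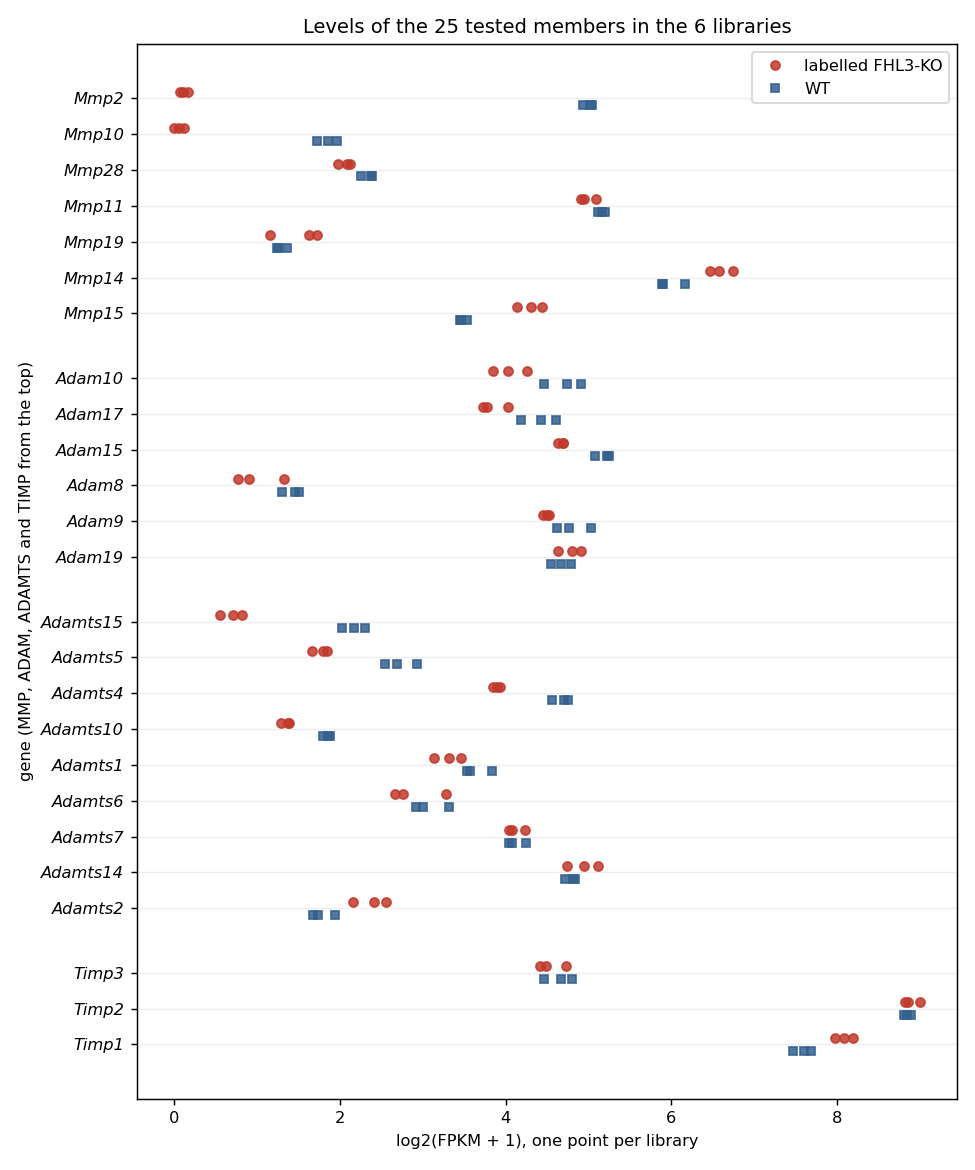
Level of each of the 25 tested genes as log2(FPKM + 1), with 1 point per library, red circles for the libraries labelled FHL3-KO above blue squares for WT, in the order MMPs, ADAMs, ADAMTSs and TIMPs. Mmp2 lies near 0 in the libraries labelled FHL3-KO and near 31.0 FPKM in WT, Mmp14 and Mmp15 are shifted up, and Timp2 has the highest level with overlapping groups.

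Promoter sequences of 4 called genes are shown here: Mmp10, the most strongly lowered gene with a record, and the abundant genes Mmp14, Mmp15 and Timp1, which rose. RefSeq promoter records (GRCm38.p6) were matched for 16 of the 25 tested genes and span 250 bases before to 50 bases after the start. Capitals mark matches to the AP-1 element, spelled TGANTCA, to the TATA box, spelled TATAAA, and to the GC box, spelled GGGCGG. The E-box, spelled CAGCTG, was searched too, and all 4 motifs were looked for on both strands.
Mmp10, chr9:7502092-7502391, plus strand: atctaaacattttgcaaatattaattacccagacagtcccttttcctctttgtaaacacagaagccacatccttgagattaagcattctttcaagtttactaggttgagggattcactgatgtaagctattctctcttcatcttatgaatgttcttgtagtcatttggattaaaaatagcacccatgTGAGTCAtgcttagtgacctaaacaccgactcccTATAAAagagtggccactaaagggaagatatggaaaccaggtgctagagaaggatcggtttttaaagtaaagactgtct
Mmp14, chr14:54431348-54431647, plus strand: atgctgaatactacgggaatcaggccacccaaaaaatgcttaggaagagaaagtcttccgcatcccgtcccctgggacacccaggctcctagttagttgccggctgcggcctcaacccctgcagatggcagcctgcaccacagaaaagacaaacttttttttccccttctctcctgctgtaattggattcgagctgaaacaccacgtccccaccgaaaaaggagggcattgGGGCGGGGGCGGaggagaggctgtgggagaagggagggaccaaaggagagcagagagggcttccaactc
Mmp15, chr8:95352046-95352345, plus strand: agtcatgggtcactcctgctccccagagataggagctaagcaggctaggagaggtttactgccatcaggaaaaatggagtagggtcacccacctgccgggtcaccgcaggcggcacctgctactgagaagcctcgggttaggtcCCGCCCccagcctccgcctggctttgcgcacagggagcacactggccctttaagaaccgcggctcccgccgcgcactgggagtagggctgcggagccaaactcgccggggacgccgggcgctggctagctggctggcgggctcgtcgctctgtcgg
Timp1, chrX:20869916-20870215, plus strand: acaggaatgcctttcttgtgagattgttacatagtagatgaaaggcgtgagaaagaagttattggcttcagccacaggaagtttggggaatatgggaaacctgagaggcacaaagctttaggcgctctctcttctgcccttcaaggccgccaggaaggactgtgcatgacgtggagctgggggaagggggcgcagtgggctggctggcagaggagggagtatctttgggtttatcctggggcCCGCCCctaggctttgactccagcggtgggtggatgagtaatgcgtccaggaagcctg

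The Mmp10 window holds an AP-1 element 63 bases and a TATA box 29 bases before the start and no GC box. Each of the windows of Mmp14, Mmp15 and Timp1 holds a GC box, and Mmp14 holds 2 that touch each other. Among the 16 genes with a record, 15 hold a GC box (all but Mmp10), 4 an E-box (Adam17, Adam19, Adamts2 and Timp2), 2 an AP-1 element (Mmp10 and Adam19) and 2 a TATA box (Mmp10 and Adamts1). Of all 32851 promoter records, 35.7% hold a GC box, 16.3% the E-box, 13.6% the TATA box and 7.81% the AP-1 element. These shares count records, whether or not their gene was tested, while the 16 genes are counted by gene over 18 records. Adam19 has its AP-1 element and its E-boxes in different records. Of the called genes with a record, GC boxes stood in 4 of 4 that rose and in 3 of 4 that fell. These matches only describe the letters of the windows.

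Of 7 tested MMPs 2 rose, 2 fell and 3 did not pass. The gelatinase Mmp2 was nearly lost. Mmp2 (ENSMUSG00000031740, chromosome 8, 92827291 to 92853420, GRCm38) cuts type IV collagen of basement membranes and denatured collagen. It was at 0.0804, 0.0515 and 0.124 FPKM in libraries labelled FHL3-KO, against 31.5, 31.9 and 29.5 FPKM in WT. No library of either group lay near the other group. The mean in WT was 363 times that in the libraries labelled FHL3-KO, and the log2 change was -4.88 (SE 0.094, limma adjusted p = 9.07e-07). With a pseudocount of 0.1 in place of 1 it was -7.41. The fibroblast marker decorin (Dcn) was at 11.2, 13.3 and 11.9 FPKM in the same libraries labelled FHL3-KO, against 163, 151 and 142 FPKM in WT, and its part in the Mmp2 result was not tested. Postn fell too, to 10.1 ± 1.3 FPKM with the FHL3-KO label, against 108 ± 16 FPKM in WT, and its part was not tested either. The other fibroblast markers were not called lower: Col1a1 was higher, Pdgfra was not called, and Lum and Thy1 lay under the filter. The other gelatinase, Mmp9, reached no more than 0.0153 FPKM in libraries labelled FHL3-KO and 0.0859 FPKM in WT, so it could not be tested.

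Genes next to Mmp2 gave little to set beside this fall. Within 250 kb of Mmp2 the annotation and the table share 11 other named genes, of which 3 were listed at 0 in every library. Only the processed pseudogene Gapdh-ps16 passed the filter on low values. It was at 47.8, 45.6 and 47.8 FPKM in libraries labelled FHL3-KO, against 36.4, 34.5 and 36.6 FPKM in WT (limma adjusted p = 0.00478), but its sequence resembles Gapdh, so its reads are uncertain. Another 7 of the 11, including the acyltransferase gene Lpcat2 and the noradrenaline transporter gene Slc6a2, had signal in WT and were listed at 0 in every library labelled FHL3-KO. Their highest value was 1.29 FPKM, for the carboxylesterase gene Ces1c in WT replicate 1, the library with liver transcripts, and Ces1c was listed at 0 in the other 5. Ces1b, Gm45505 and Gm45472 also had signal in WT replicate 1 alone. Only Lpcat2 was above 0 in every WT library, at no more than 0.0517 FPKM. The share of all genes with signal in WT alone was not computed, so these zeros are a description. The Gapdh-ps16 call ended after length and GC correction.

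The stromelysin Mmp10, which digests proteoglycans and activates other MMPs, fell as well. It was at 0.0843, 0 and 0.0414 FPKM in libraries labelled FHL3-KO, against 2.91, 2.62 and 2.29 FPKM in WT (log2 change -1.79, SE 0.12, limma adjusted p = 0.000111; -4.29 with a pseudocount of 0.1). Mmp10 lies in a cluster of 10 MMP genes on chromosome 9 (7272514 to 7699585, 427.1 kb), and it was the 1 gene of the cluster that could be tested. Of the other 9, 5 were listed at 0 in all libraries, and Mmp3, Mmp12, Mmp13 and Mmp27 did not exceed 0.156 FPKM. Those 4 were listed at 0 in all 3 libraries labelled FHL3-KO, but the WT values were near the floor too. Mmp13 had signal in WT replicate 3 alone (0.021 FPKM) and Mmp27 in WT replicate 1 alone (0.026 FPKM), and Mmp3 was at 0 in WT replicate 3. How many of all genes had signal in WT alone was not computed. The macrophage elastase Mmp12 was at 0.0409, 0.156 and 0.0156 FPKM in WT.

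The abundant membrane-type MMPs were higher. Mmp14 (MT1-MMP, ENSMUSG00000000957, chromosome 14, 54431612 to 54445364) cuts fibrillar collagen at the cell surface and is the known activator of pro-MMP2, with TIMP2 as a bridge. It was at 87.2, 106 and 94.3 FPKM in libraries labelled FHL3-KO, against 70.6, 58.8 and 58.3 FPKM in WT, the highest level of any enzyme of the set in both groups. Its log2 change was 0.61 (SE 0.11, limma adjusted p = 0.00446), and the groups did not overlap. Mmp15 (MT2-MMP, chromosome 8, 95352268 to 95375080) stood at 16.5, 20.6 and 18.8 FPKM with the FHL3-KO label, against 10.0, 10.6 and 9.89 FPKM in WT (log2 change 0.81, SE 0.0995, limma adjusted p = 0.00101). All 3 values labelled FHL3-KO lay above all 3 in WT. The other membrane-type genes, Mmp16, Mmp17, Mmp24 and Mmp25, did not exceed 0.156 FPKM in any library.

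The other tested MMPs did not pass the threshold. Mmp11 (stromelysin-3), the second most abundant MMP of the libraries labelled FHL3-KO, was at 30.7 ± 2.2 FPKM there and at 34.8 ± 1.1 FPKM in WT (SD, n = 3 each; limma adjusted p = 0.115). Its adjusted p was 0.00208 after length and GC correction, at a log2 change of -0.42. Mmp28 (epilysin) averaged 3.18 ± 0.21 FPKM with the FHL3-KO label, against 4.05 ± 0.26 FPKM in WT (limma adjusted p = 0.0694), and its log2 change of -0.27 became -0.51 (adjusted p = 0.00258) with that correction and -0.096 (0.537) after quantile normalization. For both genes the groups did not overlap. Mmp19 averaged 1.88 ± 0.57 FPKM with the FHL3-KO label, against 1.44 ± 0.12 FPKM in WT, with overlapping groups (limma adjusted p = 0.323).

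Summed over all 23 genes, the MMP level overlapped between the groups, and its make-up differed. The sum was 139, 161 and 151 FPKM in libraries labelled FHL3-KO, against 154, 146 and 142 FPKM in WT. Without Mmp2 it was 151 ± 11 FPKM with the FHL3-KO label, against 116 ± 5.7 FPKM in WT. Membrane-type genes summed to 115 ± 11 FPKM with the FHL3-KO label, against 72.9 ± 6.8 FPKM in WT. The other MMPs except Mmp23 summed to 35.9 ± 1.9 FPKM with the FHL3-KO label, against 74.0 ± 1.9 FPKM in WT. Mmp23, in neither sum, did not exceed 0.45 FPKM. Mmp14 took 63.6% ± 1.9 of the MMP sum in the libraries labelled FHL3-KO, against 42.4% ± 2.9 in WT. For Mmp2 the share was 0.0573% ± 0.025 with the FHL3-KO label, against 21.1% ± 0.74 in WT, and for Mmp15 12.4% ± 0.47 with the FHL3-KO label, against 6.91% ± 0.38 in WT. These sums are descriptions without a test, since they add up the genes whose single changes are given above.

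**Figure D2:**
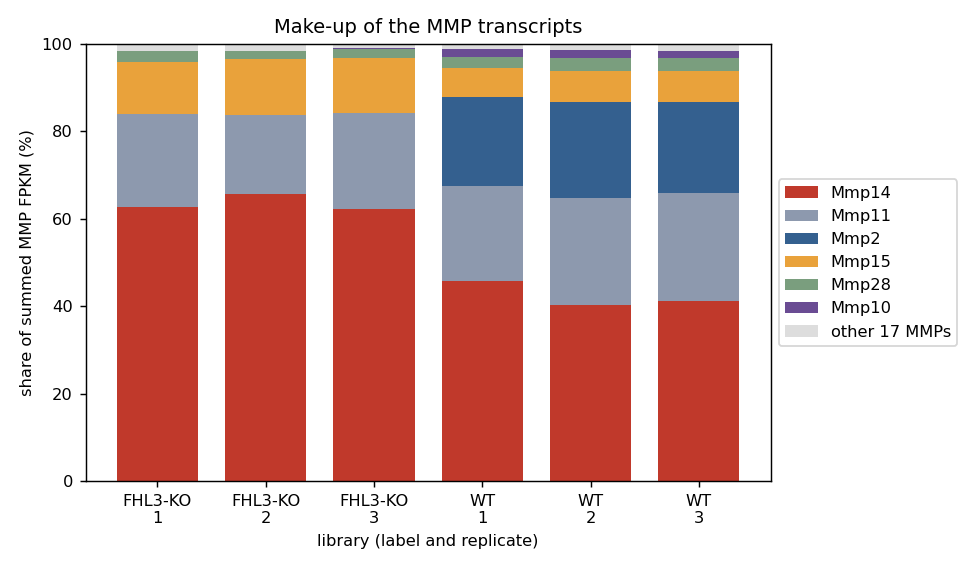
Share of the summed MMP FPKM in percent, as stacked bars for each library, the libraries labelled FHL3-KO on the left and WT on the right. Mmp14 takes 62.3% to 65.8% of the sum in the libraries labelled FHL3-KO and 40.3% to 45.8% in WT, and the Mmp2 segment of 20.4% to 21.9% in WT is too thin to see on the left.

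Of 6 tested ADAMs 3 fell, 3 did not pass and 0 rose. Adam10, the sheddase of Notch receptors and cadherins, was at 15.4, 18.2 and 13.4 FPKM in libraries labelled FHL3-KO, against 29.1, 25.7 and 21.1 FPKM in WT (log2 change -0.66, SE 0.15, limma adjusted p = 0.0104). Every value in WT was above every value labelled FHL3-KO. Adam17, which releases tumour necrosis factor and ligands of the epidermal growth factor receptor, was at 12.2, 15.3 and 12.7 FPKM with the FHL3-KO label, against 23.3, 20.5 and 17.2 FPKM in WT (log2 change -0.56, SE 0.13, limma adjusted p = 0.0131). The groups of Adam17 did not overlap, but its call ended without FHL3-KO replicate 1 (adjusted p = 0.0517) and without WT replicate 2 (0.0502). Its adjusted p ran from 0.00852 to 0.0517 over the alternatives. Adam15 (metargidin), a membrane protease linked to cell adhesion, was at 24.7, 24.9 and 23.7 FPKM with the FHL3-KO label, against 32.9, 36.9 and 36.5 FPKM in WT (log2 change -0.52, SE 0.078, limma adjusted p = 0.00239). The changes of Adam10 and Adam17 were smaller after length and GC correction, at log2 values of -0.39 and -0.38.

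The meltrins, ADAMs first described in myoblasts, were not called. Adam9 (meltrin gamma) averaged 21.5 ± 0.51 FPKM in libraries labelled FHL3-KO, against 27.2 ± 4.2 FPKM in WT (limma adjusted p = 0.055), with groups that did not overlap. Its adjusted p ran from 0.0276 to 0.128 over the alternatives, 5 of which took it below 0.05. Adam19 (meltrin beta) averaged 26.6 ± 2.7 FPKM with the FHL3-KO label, against 24.5 ± 2.1 FPKM in WT (limma adjusted p = 0.415). Adam8, a protease best known from leukocytes, averaged 1.03 ± 0.42 FPKM with the FHL3-KO label, against 1.69 ± 0.19 FPKM in WT (limma adjusted p = 0.0796), and the groups of both Adam19 and Adam8 overlapped. Adam12 (meltrin alpha), known for a role in myoblast fusion, lay under the filter, at 0.72, 0.796 and 0.694 FPKM with the FHL3-KO label, against 0.426, 0.439 and 0.203 FPKM in WT. Of the ADAMs without a working catalytic site, Adam11 was at 0.311, 0.156 and 0.585 FPKM with the FHL3-KO label, against 0.36, 0.215 and 0.387 FPKM in WT. Adam23 was at 0.022, 0.0387 and 0 FPKM with the FHL3-KO label, against 0.238, 0.292 and 0.25 FPKM in WT. The sperm gene Adam1a was at 0.518, 0.211 and 0.2 FPKM with the FHL3-KO label, against 0.42, 0.535 and 0.284 FPKM in WT.

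Of 9 tested ADAMTSs 1 rose, 4 fell and 4 did not pass. The group that cuts versican and aggrecan includes Adamts1, Adamts4, Adamts5, Adamts8, Adamts9, Adamts15 and Adamts20, of which Adamts4, Adamts5 and Adamts15 were called lower. Adamts15 was at 0.638, 0.463 and 0.77 FPKM in libraries labelled FHL3-KO, against 3.93, 3.5 and 3.08 FPKM in WT (log2 change -1.47, SE 0.13, limma adjusted p = 0.000288). Its mean in WT was 5.62 times that in the libraries labelled FHL3-KO, and with a pseudocount of 0.1 its log2 change was -2.33. Adamts5, an aggrecanase of cartilage that also clears versican around fusing myoblasts, was at 2.16, 2.46 and 2.58 FPKM with the FHL3-KO label, against 6.65, 5.45 and 4.85 FPKM in WT (log2 change -0.96, SE 0.13, limma adjusted p = 0.00152). After length and GC correction the log2 change of Adamts5 was -0.63, still called. Adamts4, the other main aggrecanase, was at 13.3, 13.9 and 14.3 FPKM with the FHL3-KO label, against 22.6, 25 and 25.9 FPKM in WT (log2 change -0.78, SE 0.084, limma adjusted p = 0.000604). None of these 3 genes had overlapping groups. Adamts1 averaged 8.91 ± 1.1 FPKM with the FHL3-KO label, against 11.6 ± 1.5 FPKM in WT (limma adjusted p = 0.0623). Its groups did not overlap, and 3 alternatives took its adjusted p under 0.05, the lowest being 0.0205. Adamts9 and Adamts20 were listed at 0 throughout. Their substrate versican (Vcan) averaged 6.17 ± 1.1 FPKM with the FHL3-KO label, against 7.16 ± 1.6 FPKM in WT, and was not called (limma adjusted p = 0.447), and aggrecan (Acan) was listed at 0 in all libraries.

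Neighbouring ADAMTS genes did not always move alike. Adamts15 and Adamts8 lie head to head on chromosome 9, with 20.1 kb between their starts. Adamts8 was under the filter, at 0.591, 0.612 and 0.697 FPKM in libraries labelled FHL3-KO, against 0.224, 0.0804 and 0.154 FPKM in WT, so its values lay above WT while those of Adamts15 lay below. Without the filter limma gave Adamts8 a log2 change of 0.50 and an adjusted p of 0.00802. Adamts1 and Adamts5, on the same strand of chromosome 16 with a gap of 53.1 kb, were both at lower means in the libraries labelled FHL3-KO.

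Of the procollagen N-proteinases, which trim the amino ends of fibrillar collagens, Adamts2 rose. It was at 3.48, 4.31 and 4.87 FPKM in libraries labelled FHL3-KO, against 2.83, 2.32 and 2.18 FPKM in WT (log2 change 0.60, SE 0.14, limma adjusted p = 0.0128), with no overlap. The call ended without WT replicate 2 (adjusted p = 0.0524), while its smallest value under an alternative was 0.00377. Adamts14, the more abundant enzyme of that pair, averaged 29.8 ± 4.0 FPKM with the FHL3-KO label, against 26.7 ± 1.2 FPKM in WT (limma adjusted p = 0.313), and Adamts3 was listed at 0. Adamts10, which binds fibrillin microfibrils, fell to 1.6, 1.44 and 1.61 FPKM with the FHL3-KO label, against 2.7, 2.49 and 2.63 FPKM in WT (log2 change -0.50, SE 0.11, limma adjusted p = 0.00876), with a log2 change of -0.33 after quantile normalization, still called. Adamts7, which cuts cartilage oligomeric matrix protein, averaged 16.3 ± 1.2 FPKM with the FHL3-KO label, against 16.4 ± 1.3 FPKM in WT. Adamts6 averaged 6.62 ± 1.8 FPKM with the FHL3-KO label, against 7.52 ± 1.3 FPKM in WT (limma adjusted p of 0.968 for Adamts7 and 0.47 for Adamts6). Adamts17 lay under the filter at 0.579, 0.76 and 0.624 FPKM with the FHL3-KO label, against 0.0994, 0.094 and 0.147 FPKM in WT, and Adamts16 at 0.816, 0.783 and 0.701 FPKM with the FHL3-KO label, against 0.619, 0.43 and 0.611 FPKM in WT. For both genes every value labelled FHL3-KO lay above every WT value.

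**Figure D3:**
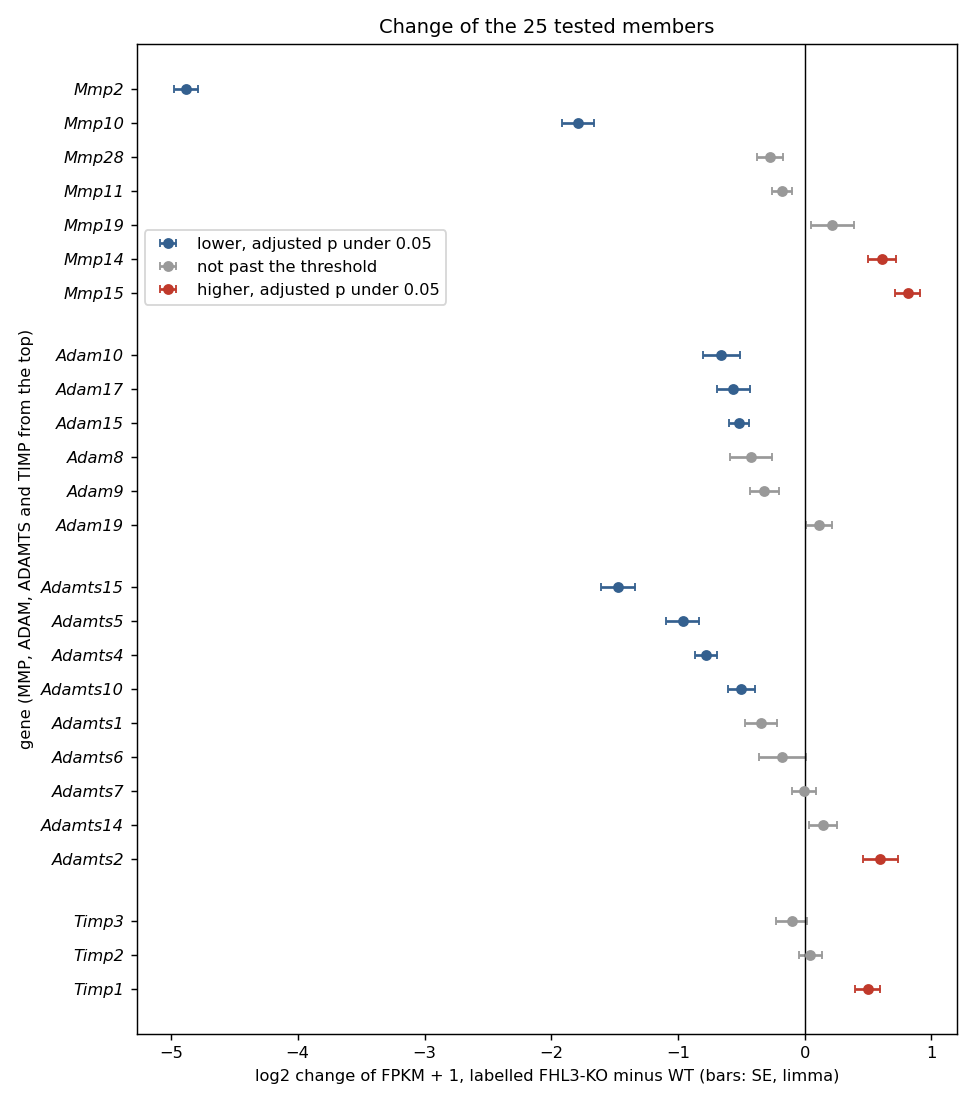
Log2 change of FPKM + 1 of the 25 tested genes, libraries labelled FHL3-KO minus WT, with the limma SE as bars, red for called higher, blue for called lower and grey for genes that did not pass. Mmp2 at -4.88, Mmp10 at -1.79 and Adamts15 at -1.47 lie farthest to the left, and Mmp15 at 0.81 farthest to the right.

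Of 3 tested inhibitors Timp1 rose, and Timp2 and Timp3 did not pass. Timp1, an inducible inhibitor on the X chromosome (20870166 to 20874735), was at 270, 249.5 and 292 FPKM in libraries labelled FHL3-KO, against 176, 193 and 205 FPKM in WT (log2 change 0.50, SE 0.097, limma adjusted p = 0.00635). The lowest value labelled FHL3-KO exceeded the highest in WT. After quantile normalization the log2 change of Timp1 was 0.30, still called. Timp2, the partner of MMP14 in the activation of pro-MMP2, had the highest level of the whole set, 475 ± 32 FPKM with the FHL3-KO label, against 461 ± 13 FPKM in WT (limma adjusted p = 0.721). Timp3, which stays bound to the matrix and also blocks ADAMs, averaged 22.4 ± 2.8 FPKM with the FHL3-KO label, against 24.2 ± 2.9 FPKM in WT (limma adjusted p = 0.524). Timp4 did not exceed 0.274 FPKM in libraries labelled FHL3-KO and 0.25 FPKM in WT.

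Set against the inhibitors, the enzymes summed to less in the libraries labelled FHL3-KO. The enzyme sum by itself overlapped between the groups, at 318, 368 and 338 FPKM with the FHL3-KO label, against 409, 384 and 363 FPKM in WT. The summed FPKM of all enzymes over that of the 4 TIMPs was 0.429, 0.468 and 0.436 with the FHL3-KO label, against 0.617, 0.556 and 0.539 in WT, without overlap. A ratio within a library does not depend on a single scaling factor per library. Quantile normalization and length and GC correction shift genes separately, and the ratio was not computed under them. The ADAM sum was 104 ± 6.5 FPKM with the FHL3-KO label, against 137 ± 12 FPKM in WT, and the ADAMTS sum 86.5 ± 8.3 FPKM with the FHL3-KO label, against 102 ± 4.7 FPKM in WT. The TIMP sum was 768 ± 23 FPKM with the FHL3-KO label, against 676 ± 15 FPKM in WT. As a percentage of the FPKM of the library the TIMPs took 0.154, 0.165 and 0.157 with the FHL3-KO label, against 0.156, 0.153 and 0.143 in WT, and here the groups overlapped. For MMPs alone the ratio to the TIMPs was 0.188, 0.205 and 0.195 with the FHL3-KO label, against 0.233, 0.211 and 0.21 in WT. The ratio of Timp1 to Timp2 was 0.599, 0.488 and 0.629 with the FHL3-KO label, against 0.382, 0.407 and 0.458 in WT. RNA ratios say nothing of how much enzyme was active.

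**Figure D4:**
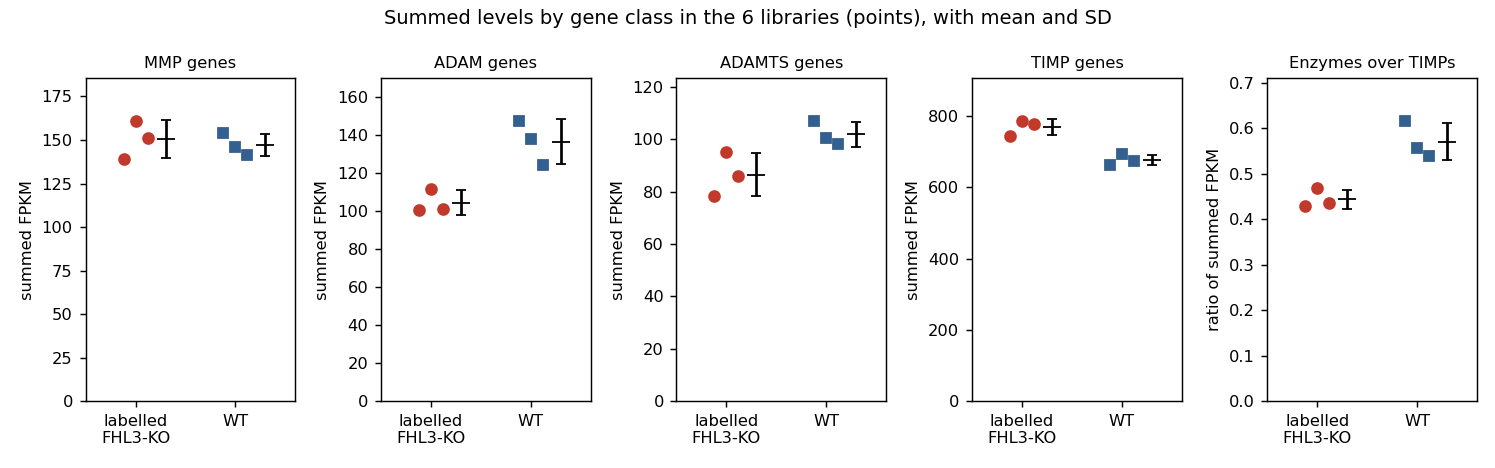
Summed FPKM of the MMP, ADAM, ADAMTS and TIMP genes and the ratio of all enzymes to TIMPs, with 1 point per library, the libraries labelled FHL3-KO left of WT, and mean and SD as black bars. The MMP sums overlap at means of 151 and 147 FPKM, while the ratio lies between 0.429 and 0.468 in the libraries labelled FHL3-KO and between 0.539 and 0.617 in WT.

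Genes that activate or restrain these enzymes, or are cut by them, were counted by list. The list counts and medians that follow stand beside 40.8% of all genes tested that were called (19.7% higher and 21.2% lower) and a median log2 change of -0.0051 over them. These counts are descriptions, since the lists were chosen with earlier results of these data known. Of the genes counted, Spock2, Mcam and Fosb passed the filter only through the libraries labelled FHL3-KO and Thsd4 only through WT, so these 4 had to differ. Of 9 convertases and surface regulators 4 were tested, with 2 higher and 0 lower and a median of 0.19. After length and GC correction 2 were higher and 2 lower, and after quantile normalization 2 and 1. Furin, which removes the propeptide of membrane-type MMPs and ADAMs, averaged 39.9 ± 3.1 FPKM with the FHL3-KO label, against 29.8 ± 1.4 FPKM in WT (limma adjusted p = 0.00873), and the testican Spock2 1.75 ± 0.31 FPKM with the FHL3-KO label, against 0.191 ± 0.029 FPKM in WT (limma adjusted p = 0.000667). Basigin (Bsg), an inducer of MMPs, averaged 564 ± 77 FPKM with the FHL3-KO label, against 576 ± 78 FPKM in WT, and was not called. Reck, a membrane-anchored inhibitor, lay under the filter at 0.591 ± 0.21 FPKM with the FHL3-KO label, against 0.78 ± 0.18 FPKM in WT. The convertase Pcsk6, also under the filter, was at 0, 0 and 0.0209 FPKM with the FHL3-KO label, against 0.679, 0.544 and 0.461 FPKM in WT. Of 9 partners of ADAM10 and ADAM17 8 were tested (median -0.082), with 1 higher (Tspan33) and 2 lower (Frmd8 and Tspan15), at limma adjusted p values of 0.00418, 0.0303 and 0.0369. The Frmd8 call ended in 6 and the Tspan15 call in 7 of 14 alternatives.

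The plasminogen system, whose protease plasmin activates several MMPs, had 2 of 8 tested genes higher and 1 lower (median -0.012). After quantile normalization 2 were higher and 3 lower, and after length and GC correction 2 and 2. Tissue plasminogen activator (Plat) fell to 15.6 ± 0.76 FPKM with the FHL3-KO label, against 40.4 ± 1.7 FPKM in WT, and its inhibitor protease nexin-1 (Serpine2) rose to 8.55 ± 1.4 FPKM with the FHL3-KO label, against 2.36 ± 0.22 FPKM in WT (limma adjusted p of 5.4e-05 and 0.000284). The urokinase receptor Plaur averaged 21.0 ± 2.8 FPKM with the FHL3-KO label, against 14.5 ± 2.1 FPKM in WT (limma adjusted p = 0.0195), and lost its call in 4 of 14 alternatives. Urokinase itself (Plau) averaged 155 ± 2.4 FPKM with the FHL3-KO label, against 157 ± 7.5 FPKM in WT, and was not called. Of 7 ADAMTS-like genes, secreted relatives without a protease domain, 5 were tested, with 0 higher and 3 lower (median -0.60). These were Adamtsl4, at 2.33 ± 0.2 FPKM with the FHL3-KO label, against 5.26 ± 0.54 FPKM in WT, Adamtsl2, at 5.73 ± 0.17 FPKM with the FHL3-KO label, against 9.78 ± 0.55 FPKM in WT, and Thsd4 (limma adjusted p of 0.00105, 0.00135 and 0.0113). The Thsd4 call ended after quantile normalization and without WT replicate 2, and after quantile normalization the list had 1 higher and 2 lower. Of 3 tested astacin proteases and enhancers (median 0.033), Bmp1, the procollagen C-proteinase, fell to 48.9 ± 2.2 FPKM with the FHL3-KO label, against 71.7 ± 1.9 FPKM in WT, and the enhancer Pcolce2 rose (limma adjusted p of 0.0014 and 0.0173). Of 3 tested cathepsins and inhibitors (median 0.22), Ctsb was lower and the inhibitor Cst3 higher (limma adjusted p of 0.00409 and 0.0365). The Pcolce2 call ended in 2 and the Cst3 call in 6 of 14 alternatives.

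Of 8 tested matrix substrates 2 were higher and 3 lower (median -0.24). The basement membrane collagen Col4a1, a substrate of MMP2, fell to 29.9 ± 2.7 FPKM with the FHL3-KO label, against 62.5 ± 0.75 FPKM in WT, Col3a1 to 123 ± 9.9 FPKM with the FHL3-KO label, against 202 ± 7.2 FPKM in WT, and Col4a2 to 23.7 ± 3.4 FPKM with the FHL3-KO label, against 42.8 ± 2.7 FPKM in WT, while Col1a1 rose to 8.67 ± 1.1 FPKM with the FHL3-KO label, against 4.16 ± 0.059 FPKM in WT (limma adjusted p of 0.000188, 0.00094, 0.00148 and 0.00108). Thbs1 rose too (0.011), a call that ended after quantile normalization. Of 15 tested substrates that ADAMs or MMPs are known to shed, 4 were higher and 5 lower (median -0.050). Among these, the call of Met (lower) ended in 4 of 14 alternatives and that of Areg (higher) in 8 of 13. The heparin-binding growth factor Hbegf rose to 13.5 ± 0.81 FPKM with the FHL3-KO label, against 7.82 ± 0.33 FPKM in WT, whereas the Notch ligand Dll1 fell to 1.59 ± 0.14 FPKM with the FHL3-KO label, against 3.59 ± 0.14 FPKM in WT, and N-cadherin (Cdh2) to 31.7 ± 2.5 FPKM with the FHL3-KO label, against 55.9 ± 6.3 FPKM in WT (limma adjusted p of 0.001, 0.00122 and 0.00128).

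Transcription factors of the AP-1 and ETS families, known regulators of MMP and TIMP promoters, had 5 of 8 tested genes higher and 0 lower (median 0.41). Jund rose to 494 ± 16 FPKM with the FHL3-KO label, against 309 ± 16 FPKM in WT, Fosb to 1.1 ± 0.087 FPKM with the FHL3-KO label, against 0.285 ± 0.14 FPKM in WT, and Fosl1 to 6.06 ± 0.79 FPKM with the FHL3-KO label, against 3.33 ± 0.73 FPKM in WT (limma adjusted p of 0.00104, 0.00534 and 0.00892). Over all genes tested 19.7% were higher. With each library scaled to the same sum 3 of the 8 were higher and 0 lower. Of the 12562 genes tested with that scaling, 1686 were higher and 2978 lower. After quantile normalization 5 of the 8 were higher and 1 lower, and after length and GC correction 4 and 1. The Fos call ended in 7 and the Ets2 call in 2 of 14 alternatives.

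**Figure D5:**
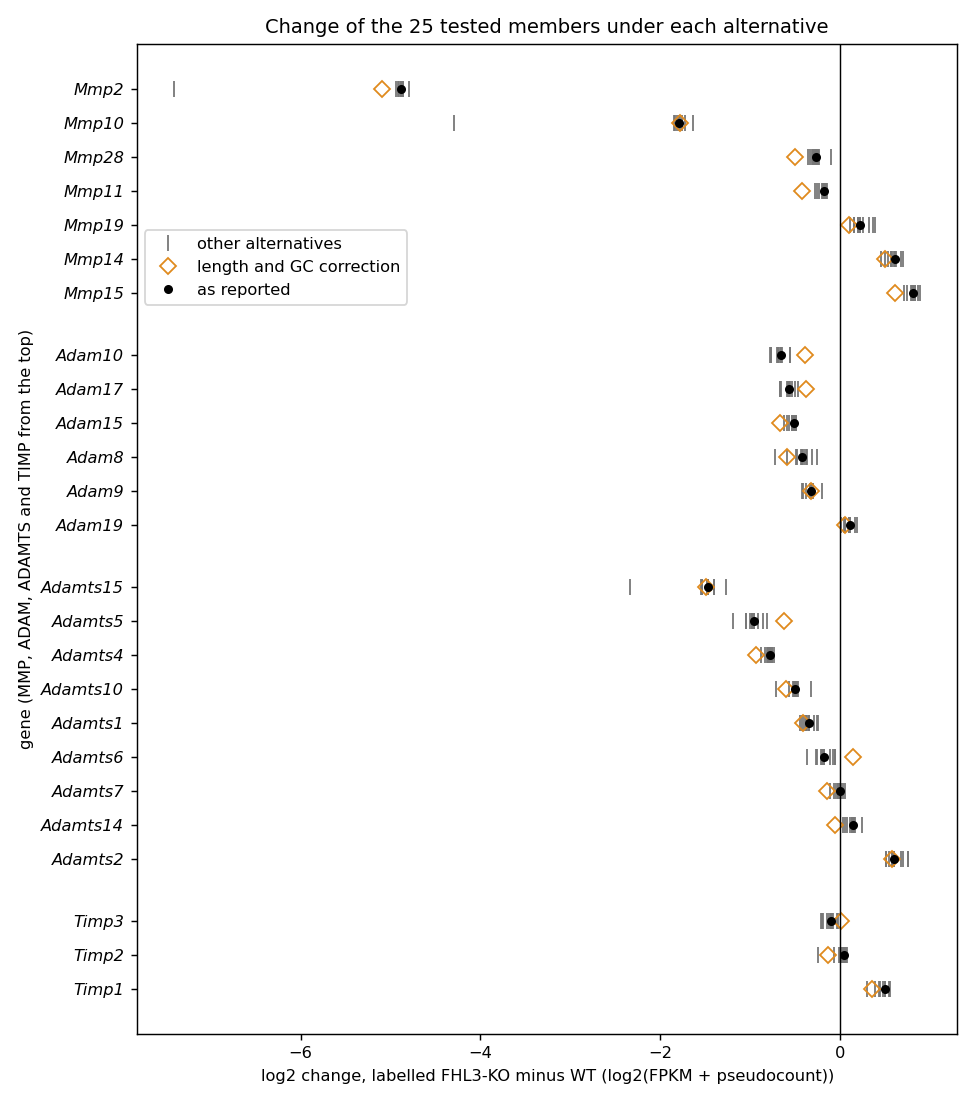
Log2 change of each of the 25 tested genes as reported (black dots), after correction for transcript length and GC content (orange diamonds) and under each other way of processing or left-out library (grey ticks). The 13 called genes keep their sign in every case, while Timp2, Timp3, Adamts6, Adamts7 and Adamts14, none of them called, cross 0.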

How the data were processed

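The authors deposited a table of decimal values for each gene and library. No header names a unit, and the deposited values are read here as FPKM, since they are not whole and their column sums differ. The submitters' processing notes name DESeq2 1.28.1, featureCounts 2.0.1, HISAT2 2.2.1 and Trim Galore 0.6.6 and the build mm10, without saying what each did. Which annotation and strand setting were used, and how FPKM were made, was not given in the sources used here. Of 55420 rows, 7 with repeated gene IDs were left out. Positions and lengths come from GENCODE M21 (GRCm38, the build mm10 names), which held 99.7% of the tested IDs.

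The 12528 genes whose mean reached 1 FPKM in either group were fitted as log2(FPKM + 1) in R 4.3.3 by limma 3.58.1 (moderated test, mean-variance trend, two-sided, no covariates, Benjamini-Hochberg over all genes tested, threshold 0.05). The steps were tested on simulated data. Exact permutation of 3 against 3 libraries can give no p below 0.1. Genes named are Fhl3, all tested members, the TIMPs, Mmp9, members reaching 0.5 FPKM, neighbours of Mmp2 within 250 kb, and up to 3 called genes with the smallest p from each other list. Bsg, Reck, Pcsk6, Mcam, Plau, Vcan, Acan, Adam23, Thbs1, Col4a2, Met, Areg, Fos, Ets2 and single untested members were added after their values were seen. Promoters are RefSeq records of GRCm38.p6. Members and lists were chosen with earlier results of these data known. Of 9 genes listed as AP-1 and ETS factors, 8 had a record of that name in the table and 1 was not analysed here. Alternatives were a pseudocount of 0.1, no filter, a filter at 5 FPKM, quantile normalization, median-of-ratios scaling, scaling to the same sum, a correction for each library's trend with length and GC (splines of 5 degrees of freedom), the replicate number as a block, a threshold of 0.01 and leaving out each library.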

Additional observations from a re-analysis of the deposited data

How the results depend on the processing

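Of the 13 called genes, 10 kept their call in each alternative that could test them and 11 in each at a threshold of 0.05. Adam17 and Adamts2 lost theirs without single libraries, and Adam10 missed the threshold of 0.01 (adjusted p = 0.0104). The number called ran from 9 with a filter at 5 FPKM to 18 after length and GC correction, beside 43.6% and 41.9% of all genes tested. The filter at 5 FPKM left Adam8, Adamts2, Adamts10, Adamts15, Mmp10, Mmp19 and Mmp28 untested, so its 9 are not out of 25. Without single libraries it ran from 11 to 14, with 3 to 4 higher and 8 to 10 lower, beside 26.1% to 42.1% of all genes. At a threshold of 0.01 the number was 10. After length and GC correction 14 were lower, as Adam8, Adam9, Adamts1, Mmp11 and Mmp28 joined, beside 2839 of all 12493 genes tested. No gene beside Mmp2 was called with that correction (0, against 1). The cause was not tested. Without a filter Adam23, Adamts8 and Adamts17, under 1 FPKM, were also called, beside 14.9% of all genes tested. Over all genes, 48.2% of the calls were rises, or 36.1% with each library scaled to the same sum, which moved the median log2 change to -0.1.

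Signs turned for genes that were not called. Length and GC correction gave log2 changes of -0.058 for Adamts14, 0.14 for Adamts6, 0.009 for Timp3 and -0.13 for Timp2. Timp2 was at -0.25 after quantile normalization, -0.066 with the same sum and -0.011 without FHL3-KO replicate 2. Without single libraries Timp2 ran from -0.011 to 0.081 and Adamts7 from -0.063 to 0.055, with Adamts7 above 0 at 0.013, 0.033 and 0.055 in 3 of 6 cases. With the replicate number as a block 13 genes were called, 4 higher and 9 lower, beside 38% of all genes tested. Deviations of same-numbered libraries correlated at -0.127, -0.0626 and 0.316 for replicates 1 to 3, and those of differently numbered libraries at -0.376 to 0.368. Deviations from a mean of 3 libraries are tied to each other, so these values cannot decide whether the numbers pair the libraries. The ratio of enzymes to TIMPs without single libraries ran from 0.432 to 0.452 in the libraries labelled FHL3-KO and from 0.547 to 0.586 in WT. Depth is unknown, so differences below 1 FPKM cannot be weighed against counting error.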
